A study of Mus musculus with 12 samples.

Results

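Neurospheres derived from mouse embryonic fibroblasts were compared with pluripotent cells on 4 expression arrays, 2 on each side, out of 12 arrays in the series. The embryonic-derived side held 1 culture grown with LIF and 1 grown with LIF and cAMP. The pluripotent side held the iPS cell line 38C2 and the ES cell line EB3, in standard culture with no treatment named. The arrays were taken by their labels, so no measured value decided the grouping. The series concerns neural stem cells induced directly from fibroblasts, and the comparison asks how far such spheres stand from pluripotent cells. The other arrays are adult fibroblast-derived neurospheres (EGF with cAMP, or LIF), neurospheres from embryonic ganglionic eminence, adult skin fibroblasts, and primary and secondary neurospheres from the iPS and ES cells. All neurospheres were kept in the medium the labels call MHM, and the labels name no allele or transgene. The mice were C57BL/6, apart from the ES and iPS cells, whose strain is not given. The ganglionic eminence spheres come from embryonic day 14. The labels name neither the conversion factors nor the parental embryonic fibroblasts' own profile, and an array of those fibroblasts was not used here. Each side differs within itself, by cAMP on the one and by cell line on the other. Whether the 2 embryonic-derived cultures come from independent derivations is not stated. The p-values measure the spread between arrays within groups, which includes these differences of medium and line as well as technical noise. They do not measure a spread between repeats of the same condition. RNA of whole cultures was measured, so fewer cells of a type and less RNA per cell cannot be told apart.

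Pluripotency rests on a network of transcription factors, with Oct4 (Pou5f1), Sox2 and Nanog at its centre, that sustain each other and hold lineage genes in check. Mouse ES and iPS cells kept with LIF are in the naive state, marked by Zfp42 (Rex1), Esrrb, Klf2, Klf4 and Tfcp2l1. They divide fast, with a short G1 phase, high cyclin E and little D cyclin. Neurospheres are floating clusters of neural stem and progenitor cells, which share Sox2 with pluripotent cells but normally lack Oct4 and Nanog.

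Values are MAS5 signals, a linear array intensity in arbitrary units that is scaled alike on every array. Differences are embryonic-derived minus pluripotent on the log2(signal + 5) scale, which understates changes of dim genes, and errors are standard errors (SE) of the fit with 2 arrays a side. A gene is called when its limma p-value, adjusted by Benjamini-Hochberg over all 13650 genes tested, lies under 0.05. Between 40.5% and 47.1% of probe sets reached a signal of 20 on the 4 arrays. Across genes, log2 signals of both embryonic-derived arrays correlated at 0.98 with each other, at 0.86 with the iPS array, at 0.82 and 0.81 with the ES array, and at 0.90 to 0.95 with the adult-derived arrays. The iPS and ES arrays correlated at 0.94 with each other. At least 2-fold differences were seen for 569 genes (4.17%) between the embryonic-derived arrays and for 2420 (17.7%) between the iPS and ES arrays. Actin 3′ to 5′ signal ratios ran from 1.25 to 1.52 over the 12 arrays.

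The defining markers did not give the embryonic-derived arrays a neural profile. The 5 pluripotent markers (Pou5f1, Nanog, Zfp42, Dppa5a, Utf1) summed to 9491 and 9980 on the LIF and the LIF plus cAMP array, to 15380 and 16320 on the iPS and ES arrays, and to 45.3 in ganglionic eminence neurospheres. They summed to 2242 and 6284 on the adult-derived EGF plus cAMP and LIF arrays. Primary neurospheres gave 54.2 from the iPS and 7481 from the ES cells. The 6 neural stem markers (Nes, Fabp7, Olig2, Pax6, Slc1a3, Hes5) summed to 340 and 282 on the embryonic-derived arrays, to 158 and 123 on the pluripotent arrays, and to 13250 in ganglionic eminence neurospheres. Pluripotency transcripts were thus at high signal in cultures labelled as neurospheres, while neural stem transcripts stood far below those of brain-derived spheres. The labels' group names are kept below.

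Embryonic-derived neurospheres differed from pluripotent cells in 3618 genes, 26.5% of those tested. Of these, 2420 (17.7%) were higher and 1198 (8.78%) lower. Each list count below is to be set beside these shares. Among 30 gene lists, the trophoblast, interferon and adhesion lists had 17 of 25, 14 of 23 and 15 of 25 genes higher. In the trophoblast list 8 genes, all called, reached the filter on no array but the embryonic-derived ones and so had to differ, and 9 of the other 17 were higher. The cell cycle list had the largest share of lower genes, at 27 of 36. The arrays of both sides did not overlap for 9203 genes (67.4%), which include every called gene. The count depends on the libraries: without the LIF array 1084 genes were called and without the LIF plus cAMP array 899, against 4421 without the iPS and 2579 without the ES array. Of 114 called genes followed through these fits, 58 were called without each of the 4 arrays in turn and 56 lost their call in at least 1 of these fits. Further called genes given below as examples were not followed through them. For most lists the counts without an array are given. The count also depends in direction on the scaling. On the deposited scale 66.9% of calls were higher and the median of all genes was 0.16, against 59.0% and -0.02 after quantile normalization. With every array at the same median, 38.0% of calls were higher and the median was -0.24. List medians are therefore also given relative to the median of all genes. Counts of some lists moved by over 1.5 times with equal medians. Higher genes went from 14 to 9 for D cyclins and inhibitors, from 5 to 3 for macrophage, from 4 to 2 for imprinted, from 2 to 1 for primed and mesoderm genes and from 1 to 0 for naive genes. Lower genes went from 1 to 3 for D cyclins and inhibitors, from 3 to 5 for DNA methylation, from 3 to 6 for neuronal and from 1 to 2 for neural stem and adhesion genes. They went from 0 to 3 for TGF-beta, to 2 for Wnt and hypoxia, and to 1 for Hox, epithelial and primed genes.

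**Figure D1:**
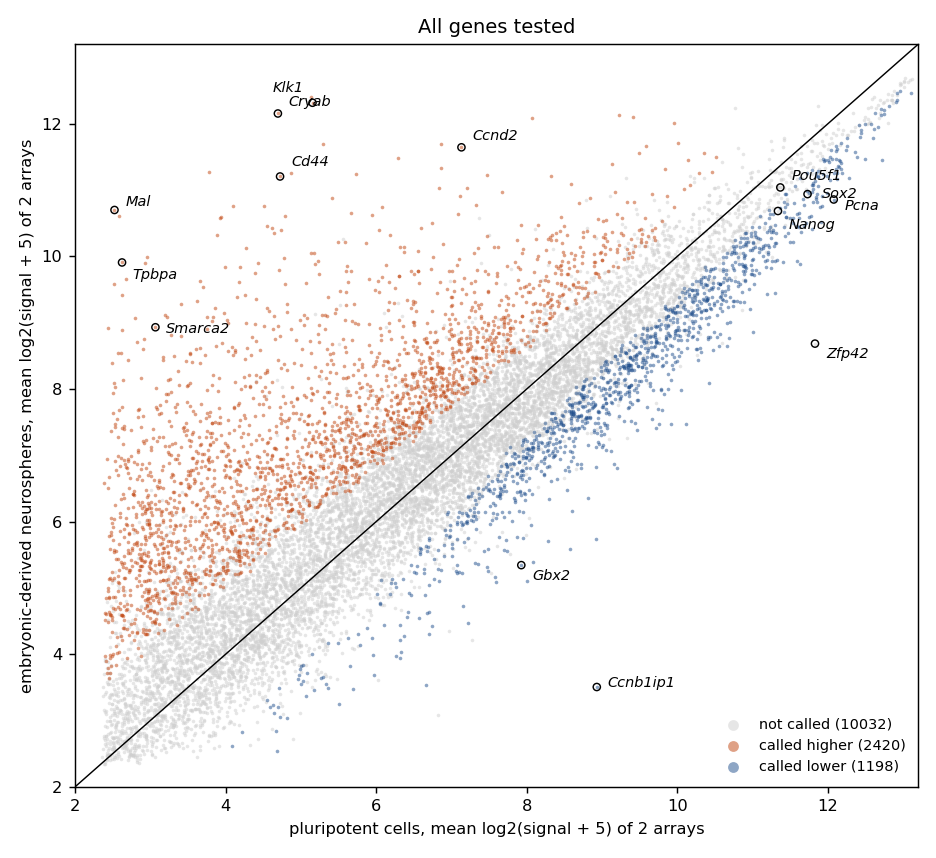
Mean log2(signal + 5) of each gene tested in the 2 pluripotent arrays (x axis) and the 2 embryonic-derived arrays (y axis), with the line of equal values. The 2420 genes called higher (orange) reach up to Mal, far above the line, and the 1198 called lower (blue) lie closer to it, while Pou5f1, Nanog and Sox2 sit near the line among uncalled genes (grey).

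The highest genes had almost no signal in pluripotent cells. Mal, a membrane proteolipid of myelin and polarised epithelium, read 1493 and 1835 on the embryonic-derived arrays and 0.6 and 0.9 on the iPS and ES arrays, a difference of 8.17 ± 0.30 (adjusted p = 4.29e-05). Klk1, a tissue kallikrein of a family of near-identical genes, read 5619 and 4604 against 34.3 and 27.2, a difference of 7.16 ± 0.30. Cryab, a small heat shock protein, read 4318 and 4786 against 27.8 and 15.4. The groups lay far apart for all 3 genes. They were high in the adult-derived neurospheres too, at 1190 and 966 for Mal, 3384 and 5517 for Klk1 and 3894 and 1231 for Cryab. Sbspon, Ano1 (a calcium-activated chloride channel) and Saa1 (an acute-phase protein) were also among the 10 highest, with differences of 8.02, 7.48 and 6.97, and Saa1 lost its call without either embryonic-derived array. Mycn, a Myc family factor, was called at 7.26 ± 1.11 on its brightest probe set, but its other probe sets went the opposite way, at -2.23 (adjusted p = 0.0155 when each probe set was tested) and -1.69. No direction is therefore given for Mycn. The remaining genes of the 10 highest, Tpbpa, Ctsj and Prl2a1, belong to the placenta and are described with it.

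The 10 lowest genes had differences between -5.42 and -2.46. Ccnb1ip1, a ubiquitin ligase needed for meiotic crossing over, read 6.5 and 6.2 on the embryonic-derived arrays and 362 and 642 on the iPS and ES arrays, a difference of -5.42 ± 0.50 (adjusted p = 0.000912). It was as dim in adult-derived neurospheres, at 3.2 and 4.2. Triml1, Hunk and Rps6ka6 (an RSK family kinase) followed with differences of -2.99, -2.89 and -2.64. Gldc, the glycine decarboxylase whose high level is typical of mouse pluripotent cells, read 74.4 and 79.1 against 204 and 970, a difference of -2.46 ± 0.69. It was not particular to pluripotent cells here, at 202 in ganglionic eminence neurospheres and 348 and 382 in iPS- and ES-derived secondary neurospheres. Rpl39l, Bcat2, Neurod1 and Atp10d complete the 10 lowest with Gbx2, at -3.18 to -2.51. The calls of Gldc, Rpl39l, Bcat2, Neurod1 and Atp10d were lost without either embryonic-derived array, and that of Triml1 without the LIF array. Gldc, Rpl39l and Neurod1 also lost theirs without the ES array, and Neurod1 without the iPS array. With the 4 arrays alone Gldc and Rpl39l were not called, and with no intensity trend or a pseudocount of 1 Rpl39l and Neurod1 were not. Neurod1 was also not called with probe set means, nor Rpl39l with all 12 arrays or no filter.

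**Figure D2:**
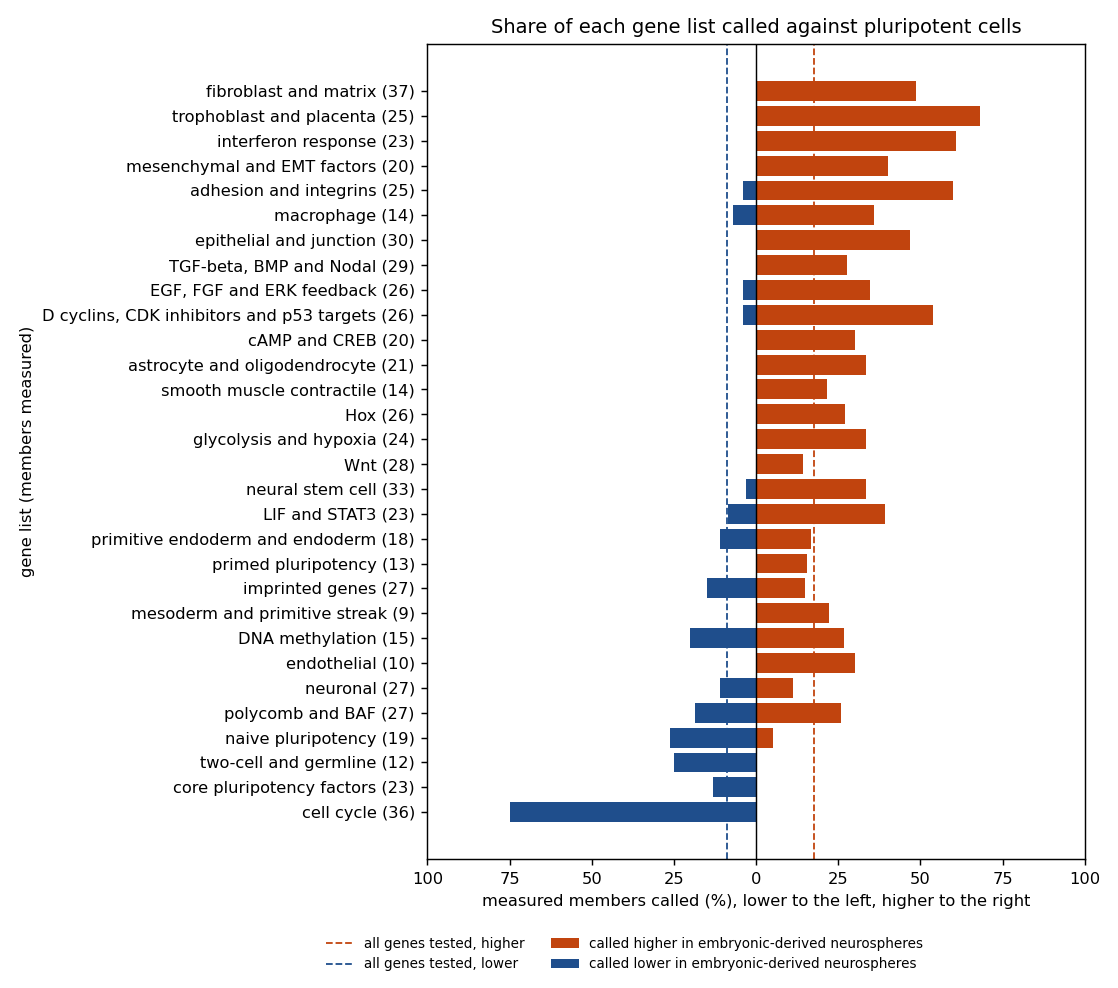
Share of the measured members of each of 30 gene lists that were called higher (orange, to the right) or lower (blue, to the left) in embryonic-derived neurospheres, ordered by the list's median difference, with the shares over all genes tested as dashed lines. Lists are small, with the number measured in brackets: 17 of 25 trophoblast genes were called higher and 27 of 36 cell cycle genes lower, while the core pluripotency list had 3 of 23 called lower.

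Core pluripotency factors stayed at high signal in the embryonic-derived neurospheres. Pou5f1 (Oct4) read 2218 and 1981 on the LIF and LIF plus cAMP arrays and 2818 and 2462 on the iPS and ES arrays. All 4 values lay close, with the embryonic-derived ones below, and the difference of -0.33 ± 0.68 was not called (adjusted p = 0.757, 95% interval from -1.91 to 1.25). Nanog read 1454 and 1845 against 2779 and 2390, a difference of -0.65 ± 0.66 (interval from -2.18 to 0.88). Sox2 read 1826 and 2092 against 3353 and 3418, a difference of -0.79 ± 0.81 (interval from -2.68 to 1.102). For both genes the embryonic-derived arrays were below the pluripotent ones without overlap, yet neither passed the test. Dppa5a, an RNA-binding protein of early embryo and germ line, read 5190 and 5425 against 6115 and 6192. In ganglionic eminence neurospheres Pou5f1 read 0.7, Nanog 2.6 and Dppa5a 28.2, and only Sox2, also a neural stem factor, was high there, at 3703.

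Of 23 measured members of the core list, 3 were called lower and none higher, beside 8.78% lower among all genes, and the list's median was -0.89, or -1.05 relative to all genes (-1.11 with equal medians and -0.73 after quantile normalization). Trim28, a co-repressor that silences retroviral elements, read 2098 and 1868 against 3634 and 4505, a difference of -1.03 ± 0.17 (adjusted p = 0.00572). Zscan10, a zinc finger partner of Oct4, read 113 and 124 against 296 and 397, and Mybl2 (B-Myb) 422 and 618 against 1049 and 910. Both groups were separate for all 3. Without the LIF plus cAMP array all 3 lost their call, Zscan10 and Mybl2 also without the LIF or the ES array, and Mybl2 without the iPS array. The others ranged from Lin28a, at 198 and 108 against 276 and 1063, to Lefty2, at 365 and 443 against 1134 and 138, where the pluripotent arrays themselves stood far apart. The fit shares its spread with groups that are uneven in pluripotency transcripts, such as the adult-derived pair with Sox2 at 85.6 and 791. With the 4 arrays alone, 8 members were called lower, among them Sox2 (adjusted p = 0.0282), Sall4 (0.0311) and Utf1 (0.0247), while Pou5f1 (0.207) and Nanog (0.0713) were not. A second Sall4 probe set went the opposite way, at 0.43. With all 12 arrays 1 member of the list was called. Leaving out the LIF array left 1 call, the LIF plus cAMP array 0, the iPS array 2 and the ES array 1.

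Of 19 measured naive-state genes 5 were lower and 1 higher, beside 8.78% and 17.7% among all genes. Gbx2, a homeobox gene downstream of LIF and STAT3, read 46.9 and 26.7 on the embryonic-derived arrays and 227 and 250 on the pluripotent ones, a difference of -2.58 ± 0.39 (adjusted p = 0.00424). Esrrb, an orphan nuclear receptor of the naive network, read 251 and 246 against 871 and 754, a difference of -1.68 ± 0.41 (adjusted p = 0.0221). Klf2, a Krüppel-like factor, read 376 and 496 against 1592 and 1687. The arrays of each side agreed closely, and the groups did not overlap. Klf5 and Nr5a2, which can activate Pou5f1, were also called, at -1.53 and -1.80. Esrrb lost its call without any 1 of the 4 arrays, Klf5 without all but the ES array and Nr5a2 without all but the iPS array, while Gbx2 was called in each of these fits. The list's median was -0.72, or -0.88 relative to all genes (-0.94 and -0.64 under the other scalings). The member that was higher was Stat3, the transducer of LIF signals, at 596 and 679 against 338 and 326, a difference of 0.93 ± 0.21. Its call was lost without either embryonic-derived array.

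Zfp42 (Rex1), the most used marker of the naive state, had the greatest deficit of the list. It read 346 and 476 on the embryonic-derived arrays and 3058 and 4299 on the iPS and ES arrays, an 8.95-fold lower mean. The groups were well apart, but the difference of -3.14 ± 1.099 missed the threshold (adjusted p = 0.0699). It passed with the 4 arrays alone (adjusted p = 0.00648), with equal medians (0.0340) and with a pseudocount of 20 (0.0196), and did not with all 12 arrays (0.230). Klf4, a reprogramming factor, read 981 and 1051 against 3824 and 1562, a difference of -1.26 ± 0.64. A second Klf4 probe set read 977 and 897 against 1587 and 494, a difference of 0.08, so the deficit depends on the probe set. Dppa3 (Stella), which protects maternal methylation, read 329 and 351 against 48.3 on the iPS and 295 on the ES array. The iPS array was the outlying member for both genes. With either embryonic-derived array left out 1 naive gene was called lower, and with the iPS or the ES array left out 2, against 7 with the 4 arrays alone and 1 with all 12.

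**Figure D3:**
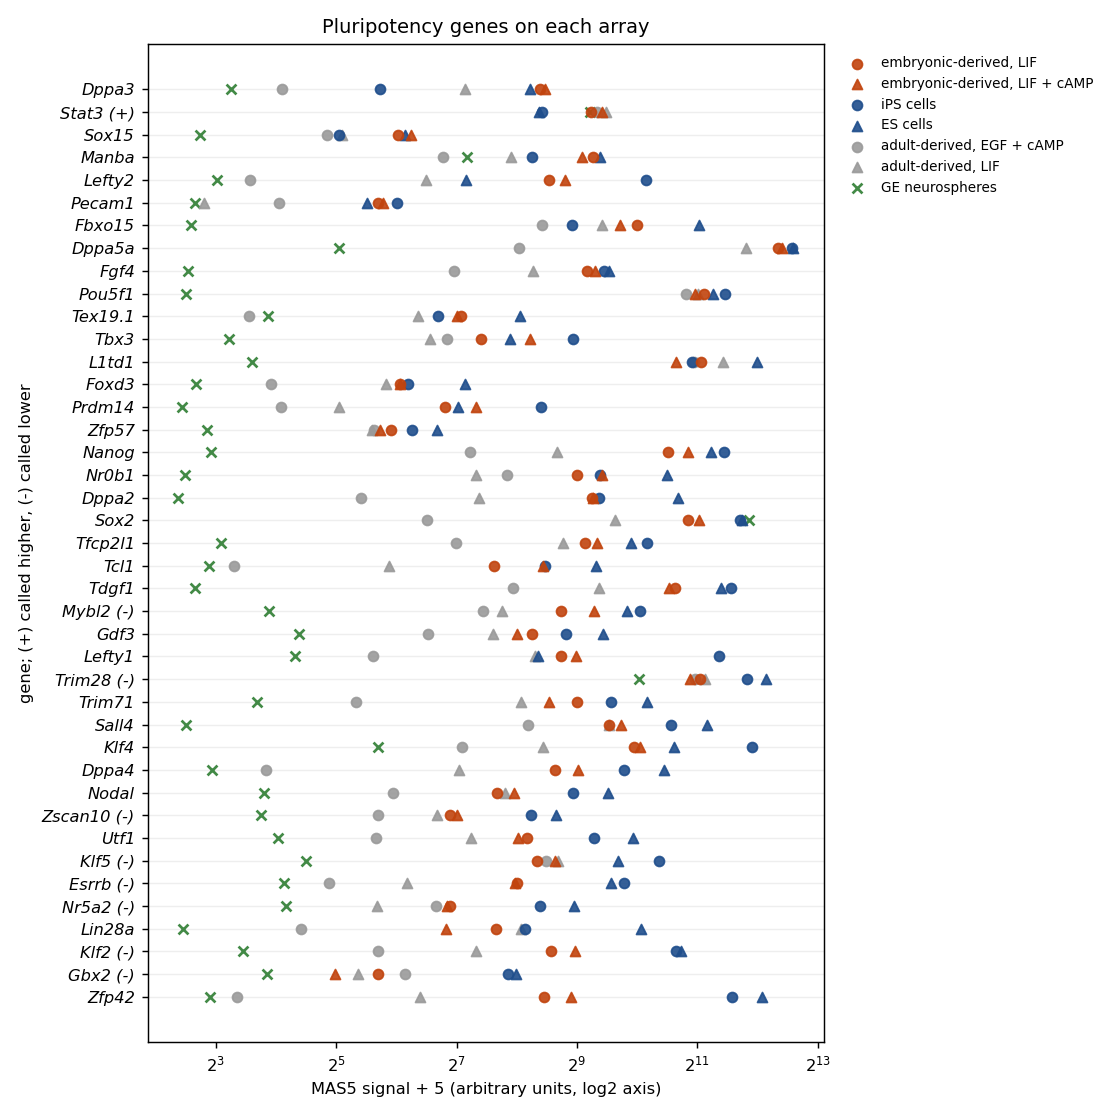
MAS5 signal plus 5 (log2 axis) of the 41 genes of the core and naive pluripotency lists on each array of the embryonic-derived (orange), pluripotent (blue), adult-derived (grey) and ganglionic eminence (green) cultures, ordered by the difference between embryonic-derived and pluripotent. For 28 of the 41 both embryonic-derived arrays lie below both pluripotent arrays (27.3% among all genes), and for 33 of the 41 both lie above both adult-derived arrays (27.6% among all genes).

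The lists together hold 41 measured genes. Both embryonic-derived arrays lay below both pluripotent arrays for 28 of them, above for 2, and overlapped for 11, whereas they lay below for 27.3% of all genes. Signals reached 100 on both embryonic-derived arrays for 36 genes, although 31 were under 20 in ganglionic eminence neurospheres and adult fibroblasts. Both embryonic-derived arrays also exceeded both adult-derived arrays for 33 genes, beside 27.6% of all genes, and lay below both for 0. Zfp42 read 5.2 and 79.1 in the adult-derived cultures, Nanog 145 and 402, and Esrrb 24.5 and 67.2. Pou5f1, at 1787 and 2069 there, overlapped the embryonic-derived arrays, and Dppa5a read 259 and 3588. The adult-derived neurospheres were called lower than pluripotent cells for 14 core and 13 naive genes (7.93% of all genes tested were lower there), a comparison that shares its pluripotent arrays with this one. None of the 41 differed between embryonic- and adult-derived neurospheres past the threshold. That comparison called 20 genes in all, 0.147% of those tested.

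Primed pluripotency, the later state of the post-implantation epiblast, gave no common direction. Of 13 measured genes 2 (Eomes and Dnmt3a) were called higher and none lower, beside 17.7% and 8.78% among all genes. The median was 0.25, or -0.20 with equal medians. Dnmt3a's other probe sets disagree, and with probe set means it had a difference of -0.37 and 1 gene was higher. Eomes, a T-box factor of epiblast and trophoblast, read 89.8 and 104 against 26.1 and 30.2, a difference of 1.62 ± 0.41 that was lost whenever any of the 4 arrays was left out. Fgf5, the usual marker of the primed state, read 29.7 and 17.2 against 1.2 and 1.6 and was not called. Otx2 read 310 and 228 against 201 and 247. The count of higher genes was 0 when either embryonic-derived array or the ES array was left out.

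Of 12 measured germline and early cleavage genes 3 were lower and none higher, with a median of -0.88, beside 8.78% lower among all genes. Ddx4 (Vasa), a germ cell helicase, read 25.9 and 40.3 against 134 and 124, a difference of -1.84 ± 0.37, and Mov10l1, a piRNA helicase, 1.1 and 0.6 against 21.1 and 20.3. Syce1, a meiotic synapsis protein, was called at -2.28. Ddx4 lost its call without either embryonic-derived array. The number called was 1 without the LIF array, 0 without the LIF plus cAMP array, 8 without the iPS array and 2 without the ES array.

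Genes for DNA methylation and its reading moved in both directions. Of 15 measured, 4 were called higher and 3 lower, beside 17.7% and 8.78% among all genes. With probe set means, where Dnmt3a was not called, the counts were 3 and 3. Dnmt1, the maintenance methyltransferase, read 425 and 359 against 837 and 796, a difference of -1.05 ± 0.25. Uhrf1, which recruits Dnmt1 to replicated DNA, read 499 and 459 against 1149 and 1361, and Tet1, which oxidises methylcytosine, 892 and 618 against 1403 and 2260. Both groups were separate for the 3 genes, which were all lower. Mbd1, Mbd2 and Gadd45b were higher, at 1.17, 1.53 and 1.79. Dnmt3a had a call of 1.21 on its brightest probe set, whereas 3 others were lower, 2 of them at -2.10 and -1.91 with adjusted p of 0.0107 and 0.0180 when each probe set was tested, so its direction depends on the probe set. Uhrf1, Mbd1, Mbd2, Gadd45b and Dnmt3a lost their call without either embryonic-derived array, and Dnmt3a also without the ES array. The de novo enzyme Dnmt3b read 460 and 283 against 440 on the iPS and 3347 on the ES array, and its cofactor Dnmt3l 659 and 553 against 252 and 2266. The ES array stood apart for both, and neither was called. Dnmt3b was called without the iPS array. Leaving out the LIF array gave 0 higher and 1 lower, and leaving out the LIF plus cAMP array 0 calls. Without the iPS array 5 were higher and 5 lower.

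Chromatin regulators were called in both directions. Smarca2 (Brm), the alternative ATPase of the BAF remodelling complex, read 609 and 382 against 8.0 and 0.4, a difference of 5.86 ± 0.47 (adjusted p = 0.000584). Smarcc2, a BAF core subunit scarce in ES cells, read 62.0 and 79.5 against 30.4 and 34.2, while its ES cell counterpart Smarcc1 read 673 and 620 against 1189 and 1414. The 3 genes did not overlap between groups, and Smarcc1 had a difference of -0.9999. Bmi1, a PRC1 subunit of somatic stem cells, was higher at 2.52, whereas Ezh2, Eed and Mtf2 of PRC2 were lower, at -0.90, -1.17 and -1.099. Smarca2 and Bmi1 were called without each array in turn, and Smarcc1 and Eed lost their call without either embryonic-derived array. Of 27 measured polycomb and BAF genes 7 were higher and 5 lower, beside 17.7% and 8.78% among all genes. The median was -0.50, and with equal medians 3 were higher and 13 lower. When either embryonic-derived array was left out 2 were higher and 0 lower. Without the iPS array 6 were higher and 7 lower, and without the ES array 4 and 3.

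Imprinted genes, expressed from the chromosome of a single parent, included neighbours that were lower together. Meg3, Rian and Mirg, maternally expressed RNAs of the Dlk1-Dio3 domain, read 221 and 322 against 1517 and 1225, 200 and 135 against 644 and 1078, and 17.6 and 25.8 against 100 and 186. Their differences were -2.33, -2.31 and -2.42, all called, and the arrays did not overlap. Phlda2, a growth-restraining gene of the placenta, was also lower, at -1.90. Cdkn1c, Dcn, Ndn and Slc22a18 were higher, so that of 27 measured 4 were higher and 4 lower, beside 17.7% and 8.78% among all genes. Meg3 and Mirg lost their call without the LIF array, Ndn without all but the iPS array, and Dcn without the LIF plus cAMP or the ES array. Of the list, 1 was higher and 0 lower without the LIF array, without the LIF plus cAMP array 0 and 2, and without the iPS and the ES array 7 and 1 were higher and 4 and 3 lower.

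DNA replication and mitosis genes were mostly lower. Of 36 measured, 27 were lower and 0 higher, beside 8.78% lower among all genes, and both embryonic-derived arrays lay below both pluripotent arrays for 33, beside 27.3% of all genes. The median was -1.13, or -1.29 relative to all genes (-1.35 with equal medians and -0.94 after quantile normalization, which called 31 and 22). The list includes the licensing proteins Cdc6 and Mcm2 to Mcm7, whose promoters commonly carry sites for E2F factors. The upstream regions of 3 licensing genes that hold a match to E2F-type letters are shown as examples. They are RefSeq promoters of build GRCm38.p6, each the 250 bases before the transcription start, 5′ to 3′ on the gene's strand, with matches to TTTCCCGC or TTTGGCGC on either strand in capitals. Cdc6 is at chr11:98907901-98908150 (+ strand), Mcm7 at chr5:138171884-138172133 (- strand) and Mcm6 at chr1:128359706-128359955 (- strand), each ending at the base before the annotated transcription start.
Cdc6: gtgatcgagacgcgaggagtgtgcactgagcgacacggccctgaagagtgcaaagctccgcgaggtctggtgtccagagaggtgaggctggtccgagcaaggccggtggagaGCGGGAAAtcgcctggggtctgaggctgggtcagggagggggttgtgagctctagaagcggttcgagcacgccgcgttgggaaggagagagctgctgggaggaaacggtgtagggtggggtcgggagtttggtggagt
Mcm7: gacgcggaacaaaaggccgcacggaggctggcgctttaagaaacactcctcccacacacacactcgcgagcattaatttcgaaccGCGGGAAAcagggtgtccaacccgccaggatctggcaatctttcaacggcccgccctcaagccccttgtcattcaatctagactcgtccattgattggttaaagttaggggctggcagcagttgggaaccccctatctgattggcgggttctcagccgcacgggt
Mcm6: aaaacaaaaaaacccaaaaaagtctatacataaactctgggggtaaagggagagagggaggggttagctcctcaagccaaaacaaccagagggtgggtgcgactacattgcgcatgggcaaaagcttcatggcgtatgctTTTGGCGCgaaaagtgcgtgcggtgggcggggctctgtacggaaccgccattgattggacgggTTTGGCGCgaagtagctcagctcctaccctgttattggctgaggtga

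Cdc6 carries 1 match, 138 bases before the start, Mcm7 1 at 165 bases, and Mcm6 2 at 110 and 47 bases. Mcm2 and a second promoter of Mcm7 held 0, and the 2 matches of Mcm3 lay after the start. Either motif was found in 8 of the 28 list genes that have a promoter in the table (28.6%), searched over 300 bases from 250 before to 50 after the start, in the same windows of 3.30% of genes tested and of 1.80% of all genes. The share was 6 of 22 (27.3%) among genes called lower and 2 of 6 (33.3%) among those not called, so the letters did not mark out the called members. No match overlaps another in the 3 regions shown, and a match is a description of sequence, not a bound site.

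The licensing genes read as follows. Cdc6, which loads the helicase, read 104 and 112 against 300 and 450, a difference of -1.72 ± 0.32 (adjusted p = 0.00928). Mcm6 read 938 and 763 against 2283 and 1812, at -1.26 ± 0.31, and Mcm7 1931 and 1891 against 3971 and 3779, at -1.02 ± 0.16. All 6 measured Mcm2 to Mcm7 genes were lower, between -1.76 for Mcm3 and -1.02. Pcna, the polymerase clamp, read 1921 and 1776 against 4290 and 4329, a 2.33-fold lower mean and the smallest adjusted p of the list (0.00139). Cyclin E1 (Ccne1), which drives entry into S phase, had the greatest change, at 147 and 201 against 730 and 1269, a difference of -2.45 ± 0.30. Of the mitotic genes, Bub1b read 201 and 200 against 913 and 849, at -2.11, and Kif20a 270 and 247 against 756 and 823, at -1.59. The pluripotent arrays lay above the embryonic-derived ones for each of these. Mki67, the common proliferation marker, read 553 and 449 against 1233 and 743 and missed the threshold (adjusted p = 0.0538), as did Aurkb, Rrm1, Cdc25c, Cdk2, Ccne2, E2f1, E2f2 and Tyms. The adult-derived neurospheres were called lower for 19 of the 36 in a comparison with the same pluripotent arrays, and ganglionic eminence neurospheres stood below both embryonic-derived arrays for all 36, as for 47.6% of all genes. Calls numbered 12 without the LIF array, 6 without the LIF plus cAMP array, 21 without the iPS array and 27 without the ES array. Pcna, Ccne1 and Kif20a were called in all 4 of these fits, and Mki67 was called without the ES array.

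Many brakes and G1 regulators were higher. Ccnd2 (cyclin D2) read 3543 and 2873 against 133 and 137, a difference of 4.51 ± 0.18 (adjusted p = 4.32e-05). Rb1, the retinoblastoma protein, read 850 and 863 against 242 and 148. The inhibitor locus Cdkn2a (Ink4a/Arf) read 900 and 839 against 181 on the iPS and 8.9 on the ES array, and Cdkn1a (p21) 1339 and 1490 against 506 and 153. In all 4 genes the lowest embryonic-derived array stood above the highest pluripotent one. Of 26 measured D cyclins, inhibitors and p53 targets 14 were higher and 1 lower, beside 17.7% and 8.78% among all genes. The median was 0.997, or 0.84 relative to all genes. The gene that was lower was Cdk4, at -1.002, which lost its call without the LIF plus cAMP array. Cyclins D1 and D3 were not called, and Ccnd1 read 1814 and 1497 against 726 and 1010. Higher genes numbered 2 without the LIF array, 3 without the LIF plus cAMP array, 15 without the iPS array and 7 without the ES array.

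Many placental and trophoblast genes were higher in embryonic-derived neurospheres. Tpbpa, a secreted protein of the spongiotrophoblast, read 1325 and 687 on the LIF and LIF plus cAMP arrays and 2.3 and 0.2 on the iPS and ES arrays, a difference of 7.28 ± 0.46 (adjusted p = 0.000216). Ctsj, a placental cathepsin, read 510 and 1133 against 0.9 and 0.6. Prolactin family members of the placenta followed, with Prl2a1 at 1429 and 710 against 1.3 and 4.6, Prl7d1 (proliferin-related) at 685 and 194 against 1.0 and 1.2, and Prl4a1 at 168 and 254 against 2.9 and 4.0. None of these genes exceeded 10 on any pluripotent or adult-derived array. Which embryonic-derived array was the brighter differed by gene: Tpbpa, Prl2a1, Prl7d1 and Plac1 (277 and 90.3) were brighter with LIF alone, Ctsj and Prl4a1 with LIF and cAMP.

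Of 25 measured trophoblast genes 17 were higher and 0 lower, beside 17.7% higher among all genes. The median was 2.62, or 2.46 relative to all genes (2.57 and 2.42 under the other scalings). The list of 37 has 12 genes that were not measured under these names or were too dim, and the 8 that passed the filter only through these arrays had to differ. The keratins Krt7, Krt8, Krt18 and Krt19, also in the epithelial list, are 4 of the 17. Krt8 and Krt18, the first keratins of the embryo, read 1016 and 1607 against 94.9 and 47.7, and 700 and 1222 against 82.6 and 51.3. Of the transcription factors, Tfap2a read 372 and 380 against 10.7 and 12.1 and Gata3 26.8 and 33.3 against 0.6 and 0.6, both called. Elf5 and Eomes, which keep trophoblast stem cells undivided in fate, read 17.8 and 21.5 against 0.2 and 0.3, and 89.8 and 104 against 26.1 and 30.2. Cdx2, the factor that sets up the lineage, stayed at 14.4 and 11.9 against 8.9 and 6.5, Ascl2 at 34.3 and 20 against 15.1 and 29.9, and Tfap2c at 443 and 520 against 403 and 528, none of them called. Genes of mature placenta were thus bright on arrays where Cdx2 was dim. Without the LIF array 11 were higher, without the LIF plus cAMP array 10, without the iPS array 15 and without the ES array 14.

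**Figure D4:**
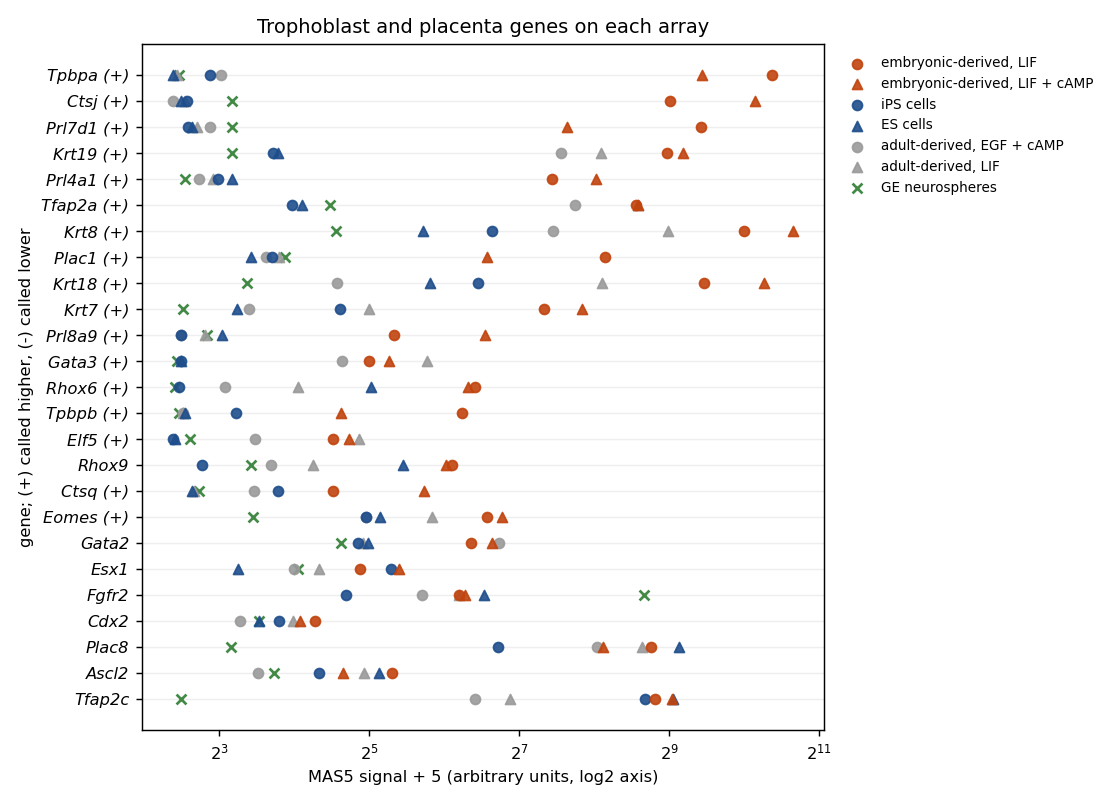
MAS5 signal plus 5 (log2 axis) of the 25 measured trophoblast and placenta genes on each array of the embryonic-derived (orange), pluripotent (blue), adult-derived (grey) and ganglionic eminence (green) cultures. For Tpbpa, Ctsj, Prl7d1 and Prl4a1 the orange points stand alone at the right, while keratins and Tfap2a are also raised on the adult-derived arrays and Cdx2 is dim on all.

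In adult-derived neurospheres these placental transcripts were near background. Tpbpa read 3.1 and 0.4 there, Ctsj 0.2 and 0.8, and Prl2a1 8.1 and 7.6. Tested directly, 19 genes (0.139%) were higher and 1 (0.00733%) lower in embryonic- than in adult-derived neurospheres, and 16 of these 20 were also called against the pluripotent cells. The greatest differences were Tpbpa at 7.18, Ctsj at 7.12, Prl2a1 at 6.30, Prl7d1 at 5.75 and Prl7b1 at 5.54, and the adjusted p of Tpbpa, Ctsj and Prl7b1 was 0.00184. All of these genes reached the filter on no array but the embryonic-derived ones, so they had to differ here too. Prl7b1 read 628 and 458 against 5.3 and 3.4 in pluripotent cells. Prl6a1, Ceacam9 and Ceacam15, all expressed in placenta, were on the list as well, with Ceacam15 at 306 and 151 against 14.8 and 11.4. By the RefSeq gene order of the mouse, Ctsj and Tpbpa are neighbours with 0 protein-coding genes between them, and so are Ceacam9 and Ceacam15. The 5 prolactin genes called lie on the chromosome of Ctsj and Tpbpa, with 1 to 13 genes between any pair of them and 244 to 259 between them and that pair. The remaining genes include Dio2 (a deiodinase), the posterior Hox gene Hoxd13 and the Y-linked Kdm5d. The gene that was lower was Iapp, at 2.0 and 0.9 against 103 and 261 in the adult-derived cultures. The count was 7 without the adult-derived EGF plus cAMP array, 41 without the adult-derived LIF array, 4 without the embryonic-derived LIF array and 8 without the LIF plus cAMP array. Tpbpa, Ctsj, Prl2a1 and Prl7b1 kept their calls in each of these fits.

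Primitive endoderm and mesoderm gave few calls. Of 18 endoderm genes 3 were higher and 2 lower, beside 17.7% and 8.78% among all genes. The 3 that were higher (Cited1, Sparc and Col4a2) are not confined to endoderm. Gata6, the factor of primitive endoderm, read 52.9 and 54.8 against 36.0 and 10.1, Sox17 5.6 and 12.4 against 50.9 and 3.7, and Afp at most 4.0, with none called. Of 9 mesoderm genes 2 were higher, Foxc1 and Eomes, against 0 when either embryonic-derived array and 1 when either pluripotent array was left out. Foxc1, Sparc and Col4a2 lost their call without either embryonic-derived array, and Gata6 was called without the iPS array. Without the LIF or the LIF plus cAMP array 1 endoderm gene was higher and 0 lower, and without the iPS array 6 and 0.

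Some neural stem cell genes were higher than in pluripotent cells, at signals mostly far under those of brain neurospheres. Olig2, a progenitor factor of oligodendrocytes and motor neurons, read 141 and 116 against 2.5 and 1.8, a difference of 4.22 ± 0.35 (adjusted p = 0.000639), and 1032 in ganglionic eminence neurospheres. Egfr, the receptor for the mitogen EGF, read 161 and 138 against 3.7 and 4.2, and 1034 in the brain spheres. Ptprz1, a receptor phosphatase of radial glia and oligodendrocyte precursors, read 553 and 477 against 8.3 and 10. The groups were clearly separate for these genes. Adult skin fibroblasts read 524 for Egfr and 8627 for Vim, above both embryonic-derived arrays, so neither transcript was particular to neural cultures. They read 0.4 for Olig2, 8.4 for Fabp7 and 32.2 for Cspg4, below both. Of 33 measured 11 were higher and 1 lower, beside 17.7% and 8.78% among all genes. The median was 0.43, or 0.28 relative to all genes. Cspg4 (NG2), Olig1, Ednrb, Fabp7, Vim, Emx2, Sox9 and Nes were the other higher genes, and Fabp7 lost its call without either embryonic-derived array.

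The filament protein Nestin (Nes), the usual label of neural stem cells, read 71.5 and 79.3 against 40.0 and 8.3, at 1.72 ± 0.52 (adjusted p = 0.0445). It lost its call without any array but the iPS one. The call was also lost with the 4 arrays alone, quantile normalization, equal medians, no filter, no intensity trend or a pseudocount of 1. Several defining factors were near background on the embryonic-derived arrays. Hes5, the Notch target of neural stem cells, read 0.7 and 1.9 against 1859 in ganglionic eminence neurospheres, Nr2e1 (Tlx) 3.2 and 0.8, Sox8 3.8 and 5.8, and Gfap, the astrocyte filament, 0.2 and 0.5. Pax6 read 24.1 and 8.7 against 34.0 and 50.1 and was not called. Slc1a3, the glial glutamate transporter, was lower, at -1.104. Both embryonic-derived arrays lay below ganglionic eminence neurospheres for 29 of the 33 genes, beside 42.6% of all genes, and above for 2. Leaving out the LIF array left 7 higher, the LIF plus cAMP array 6, the iPS array 13 and the ES array 9.

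Neuronal genes were called in both directions, and glial genes only higher. Of 27 neuronal genes 3 were higher (Dpysl3, Gad2, Slc17a6) and 3 lower (Uchl1, Tubb3, Neurod1). Among all genes 17.7% were higher and 8.78% lower, so no shift of neuronal genes is read from these counts. Dpysl3 read 948 and 651 against 73.5 and 214, whereas Tubb3, the neuronal beta tubulin, read 60.8 and 39.7 against 128 and 289. Dpysl3 lost its call without the LIF array, and Tubb3 and Uchl1 without all but the iPS array. Of 21 astrocyte and oligodendrocyte genes 7 were higher and 0 lower, beside the same 17.7% and 8.78%. They were led by Mal and by Aldoc at 753 and 824 against 150 and 157. Mbp, a major myelin protein, read 78.5 and 51.1 against 5.4 and 2.5, while Gpr17 and Mag stayed under 10 on all 4 arrays. With either embryonic-derived array left out 4 of the glial genes were higher. For neuronal genes these fits called 0 and 1 higher and 0 lower, and without the ES array 1 and 0.

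Epithelial keratin and desmosome genes were higher, while several junction genes of pluripotent cells were not called. Krt19 read 497 and 576 against 8.1 and 8.8, a difference of 5.33 ± 0.31 (adjusted p = 0.000195). Desmoplakin (Dsp), the anchor of desmosomes, read 812 and 1047 against 43.6 and 44.1, and the plaque protein Pkp1 133 and 214 against 1.8 and 0.8. Basal keratinocyte genes were higher from low signals, with Krt14 at 44.7 and 57.2 against 4.5 and 4.0, Krt5 at 52.2 and 40.3 against 12.8 and 13.7 and Trp63 at 25.5 and 28.1 against 1.5 and 4.6. All 6 were without overlap. Cdh1 (E-cadherin), which holds ES cell colonies together, read 1021 and 1395 against 1792 and 2179, Epcam 1061 and 1355 against 380 and 904, and Spint2 1259 and 1389 against 1313 and 1352, and none of these was called. Of 30 measured 14 were higher and 0 lower, beside 17.7% and 8.78% among all genes. The median was 1.40, or 1.24 relative to all genes. Without the LIF array 6 were higher and without the LIF plus cAMP array 5.

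Adhesion receptors were higher in the main. Cd44, the hyaluronan receptor of mesenchymal and stem cells, read 2679 and 2064 against 49.4 and 7.8, a difference of 6.48 ± 0.63 (adjusted p = 0.00106). Itgb4, the hemidesmosome integrin, read 189 and 322 against 5.7 and 11.8, and the laminin chain Lama4 753 and 374 against 2.1 and 1.8. Of 25 measured 15 were higher and 1 lower, Lama1, the laminin of the early embryo, at 30.4 and 56.9 against 227 and 123, which lost its call without all but the ES array. Among all genes 17.7% were higher and 8.78% lower. The list's median was 1.49, or 1.33 relative to all genes. Itga6, shared by stem cells of many kinds, read 1337 and 1022 against 1243 and 891 and was not called. The count of higher genes was 8 without the LIF array and 6 without the LIF plus cAMP array.

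Fibroblast and matrix genes were higher, though the pluripotent arrays disagreed with each other. Col5a2 read 1529 and 1596 against 44.3 on the iPS and 10.4 on the ES array, a difference of 5.83 ± 0.62 (adjusted p = 0.00136). Timp3, an inhibitor of matrix proteases, read 579 and 385 against 25.1 and 15.2. S100a4 (fibroblast-specific protein) read 2686 and 2235 against 144 and 0.7. The iPS array stood above the ES array for all 3, as for Col1a2 (1236 and 1195 against 163 and 8.3), which was not called with a difference of 4.69 ± 1.89. Of 37 measured 18 were higher and 0 lower, beside 17.7% and 8.78% among all genes. The median was 2.76, or 2.60 relative to all genes. The 6 fibroblast markers summed to 1574 and 1606 on the embryonic-derived arrays, to 286 on the iPS and 69.8 on the ES array, and to 26710 in adult skin fibroblasts, with Thy1 at 28.6 and 47.8 against 39.2 and 42.7. The part of residual or other fibroblasts in this result was not tested. Higher genes numbered 6 without the LIF array, 3 without the LIF plus cAMP array, 22 without the iPS array and 9 without the ES array.

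Of 20 mesenchymal regulators 8 were higher and 0 lower, beside 17.7% and 8.78% among all genes. Prrx1, a homeobox gene of limb and facial mesenchyme, read 588 and 647 against 14.6 and 0.7, and Tgfbr2, a TGF-beta receptor, 942 and 773 against 28.0 and 8.4. Vim (vimentin) read 3569 and 3144 against 990 and 1062, a difference of 1.70 ± 0.13 (adjusted p = 0.000483). Snai1, a classical inducer of mesenchymal change, stayed under 10 on all 4 arrays, and N-cadherin (Cdh2) read 130 and 66.2 against 61.2 and 88.4, overlapping. Vimentin and matrix genes were therefore higher beside keratins in the same RNA. Contractile smooth muscle genes gave 3 calls of 14 (Actg2, Cald1, Tpm1), all higher. That is near the 17.7% among all genes, so no shift is read from it. Most of these calls were lost without either embryonic-derived array. Cnn1 and Myh11 were under 4 on all 4 arrays. For the mesenchymal regulators 4 were higher without the LIF array, 3 without the LIF plus cAMP array and 4 without the ES array.

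LIF was in the medium of both embryonic-derived cultures, and its receptor and transducers were measured. Of 23 LIF and STAT3 genes 9 were higher and 2 lower, beside 17.7% and 8.78% among all genes. The median was 0.30, or 0.15 relative to all genes (0.08 with equal medians and 0.52 after quantile normalization). With equal medians 6 were higher and 4 lower and the median was -0.16. Cebpd, a direct STAT3 target, read 1127 and 1243 against 52.8 and 29.8, a difference of 4.73 ± 0.45 (adjusted p = 0.00106), and Osmr, the receptor of the related cytokine oncostatin M, 507 and 303 against 27.5 and 3.9. Saa3, an acute-phase protein, read 1199 and 1501 against 27.4 and 16.8. The groups did not overlap for these. The adult-derived EGF plus cAMP array, whose label names no LIF, read Cebpd at 357, Il6ra at 37.2 and Jak2 at 148. Each of these values lay above both pluripotent arrays. The part of LIF in these differences was not tested. Lifr itself read 450 and 225 against 543 and 455, Il6st (gp130) 222 and 266 against 253 and 197, and the feedback inhibitor Socs3 1529 and 1822 against 1787 and 1022, none called. Klf5 and Gbx2, targets that belong to the naive network, were the 2 lower genes. Il6ra, the interleukin 6 receptor, and the kinase Jak2 were called at 3.59 and 2.21 and stayed called without each array in turn. When either embryonic-derived array was left out 4 were higher.

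Receptors and feedback genes of EGF and FGF signalling were higher in 9 and lower in 1 of 26, beside 17.7% and 8.78% among all genes. Besides Egfr these included Erbb2 (66.6 and 55.0 against 28.9 and 11.1), Erbb3, Fgfr1, the ligands Tgfa and Ereg, the inhibitor Spry1 (403 and 295 against 117 and 88.1) and the responsive genes Phlda1 and Ier3. Spry1 lost its call without the LIF array. Etv4 was lower, at -1.29. Fgf4, the autocrine signal of ES cells, read 570 and 623 against 694 and 739 and was not called. The median was 1.21, or 1.05 relative to all genes. Without either embryonic-derived array 4 were higher, and 4 without the ES array.

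Genes that answer cAMP were higher in 6 of 20 and lower in 0, on the array with cAMP and the one without. Among all genes 17.7% were higher and 8.78% lower. Dio2 read 331 and 354 against 1.8 and 1.2, a difference of 5.74 ± 0.39 (adjusted p = 0.000314). Rgs2 read 258 and 260 against 22.0 and 8.6. Other members were brighter with cAMP: Nr4a2 read 41.1 with LIF and 229 with LIF and cAMP, Pde4d 295 and 615, and Crem 34.6 and 73.4, each above both pluripotent arrays. A single array per medium allows no test of that difference. Without the LIF plus cAMP array 3 were higher, without the ES array 3, without the LIF array 8 and without the iPS array 11.

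Receptors and ligands of TGF-beta and BMP signals were among the genes that were higher. Of 29 measured 8 were higher and 0 lower, beside 17.7% and 8.78% among all genes. They included the receptors Tgfbr2, Acvr1 and Bmpr2 (741 and 561 against 312 and 124), the ligands Tgfb2 and Inhba and the BMP target Id3 (848 and 694 against 151 and 233). The Nodal branch of pluripotent cells was not called: Nodal read 199 and 244 against 487 and 728, its co-receptor Tdgf1 (Cripto) 1574 and 1479 against 2999 and 2686, and Lefty1 420 and 500 against 2630 and 321. In Wnt signalling 4 of 28 were higher (Tcf7l2, Wnt5a, Fzd1, Fzd6), which is no larger a share than the 17.7% among all genes, and Axin2, the general target, read 19.5 and 29.3 against 31.6 and 33.1. Without either embryonic-derived array 1 gene of the TGF-beta list was higher, and without the ES array 5. Acvr1, Bmpr2 and Id3 were among the calls lost. For Wnt, 1 was higher without the LIF plus cAMP array and 2 without the ES array. Fzd1 lost its call without the LIF plus cAMP or the ES array, and Fzd6 also without the LIF array.

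Hox genes, which mark position along the body axis, were higher from the A and D clusters. Of 26 measured 7 were higher and 0 lower, beside 17.7% and 8.78% among all genes. Of the 7, 1 reached the filter on no array but the embryonic-derived ones and so had to differ. Hoxd13, of distal limb and tail, read 124 and 187 against 9.2 and 11.4, a difference of 3.37 ± 0.37 (adjusted p = 0.00147). Hoxa10 read 287 and 315 against 52.8 and 4.4, Hoxd10 74.4 and 122 against 2.8 and 0.6, and Hoxa9 511 and 588 against 145 and 5.1. The embryonic-derived arrays were above both pluripotent arrays throughout these 4. Genes of the C cluster were at or near background, with Hoxc8 at 7.0 and 18.4 and Hoxc10 at 4.2 and 1.3. Hoxa10 and Hoxd10 lost their call without either embryonic-derived array, and Hoxd10 also without the ES array. In the adult-derived cultures Hoxc8 read 274 and 192, and Hoxd13 12.9 and 7.6. Only Hoxd13 differed past the threshold between these 2 kinds of culture, at 3.39 (adjusted p = 0.0272), and it lost that call without any of the 4 arrays compared. Without either embryonic-derived array 1 Hox gene was higher than in pluripotent cells, without the ES array 4.

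Some hypoxia-regulated genes were higher, while most glycolytic enzymes were not called. Of 24 measured 8 were higher and 0 lower, beside 17.7% and 8.78% among all genes. Egln3 and Egln1, the oxygen-sensing prolyl hydroxylases, read 403 and 622 against 42.1 and 56.9, and 297 and 298 against 133 and 52.3. Ndrg1 and Ankrd37, hypoxia-inducible genes, were called at 2.75 and 2.77, and Epas1 (HIF-2 alpha) at 2.54. Ankrd37 lost its call without the LIF array and Ndrg1 without the LIF plus cAMP array. The hexokinase Hk1 was higher, at 1.22. Aldoa, Pgk1, Pkm and Ldha were not called, with Pkm at 2182 and 2076 against 2092 and 2224. Without the LIF array 4 were higher and without the LIF plus cAMP array 2.

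Antigen-presentation and interferon-response genes were higher in 14 of 23 and lower in 0, beside 17.7% and 8.78% among all genes. The median was 2.03, or 1.87 relative to all genes. B2m, the light chain of MHC class I, read 1169 and 3436 against 322 and 123, a difference of 3.30 ± 0.55 (adjusted p = 0.00636). The class I gene H2-D1, one of several near-identical genes, read 724 and 1746 against 96.9 and 62.4, and the antiviral gene Rsad2 67.8 and 164 against 10 and 7.5. The LIF plus cAMP array was the higher for all 3, and by most for Gbp2, at 30.7 and 614. Both arrays were nonetheless above both pluripotent arrays. Without the LIF array 9 were higher, without the LIF plus cAMP array 4 and without the ES array 8.

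Among the 4 arrays compared, several macrophage genes were high on the LIF array alone. The 6 macrophage markers (Lyz2, Csf1r, Ptprc, Adgre1, Cd68, Tyrobp) summed to 1991 there, to 332 on the LIF plus cAMP array, and to 192 and 103 on the pluripotent arrays, where 4 of them were under 20. Each of the 6 reached 20 on the LIF array. Cd68 went the other way, at 150 with LIF and 205 with LIF and cAMP, against 97.6 and 75 in pluripotent cells. Ptprc read 41.1 and 5.8, and 90.6 and 40.2 on the adult-derived arrays. In adult skin fibroblasts the 6 markers summed to 707, with Lyz2 at 348 and Csf1r at 307. Ptprc, Adgre1, Cd68 and Tyrobp read 4.7, 8.7, 23.5 and 14.9 in those fibroblasts. Lyz2 (lysozyme) read 1434 and 42.3 against 59.6 and 6.2, and Tyrobp 91.7 and 7.8 against 14 and 5.4, neither called, though Lyz2 was without the LIF plus cAMP array. Csf1r, the receptor that macrophages need, read 221 and 59.8 against 9.5 and 8.7, and Mpeg1 82.7 and 71.9 against 2.0 and 0.6, both called. In the macrophage list 5 genes reached the filter on no array but the embryonic-derived ones, and 0 of these were called higher. Of 14 measured 5 were higher and 1 lower (Laptm5, a call lost without all but the ES array), and 2 and 7 were higher without the LIF and the LIF plus cAMP array, 3 without the ES array. Among all genes 17.7% were higher and 8.78% lower. The part of macrophages in the differences led by the LIF array was not tested. Of 10 endothelial genes 3 were higher, beside 17.7% among all genes. They were the receptors Tek (364 and 854 against 20 and 72.1) and Flt1 and the junction protein Cdh5. Cdh5, at 60.1 and 21.9, reached the filter on no array but the embryonic-derived ones and so had to differ. Emcn stayed under 4, and Pecam1, also a pluripotency gene, read 46.8 and 49.6 against 59.5 and 40.4. Without the LIF, the LIF plus cAMP or the ES array 1 endothelial gene was higher.

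**Figure D5:**
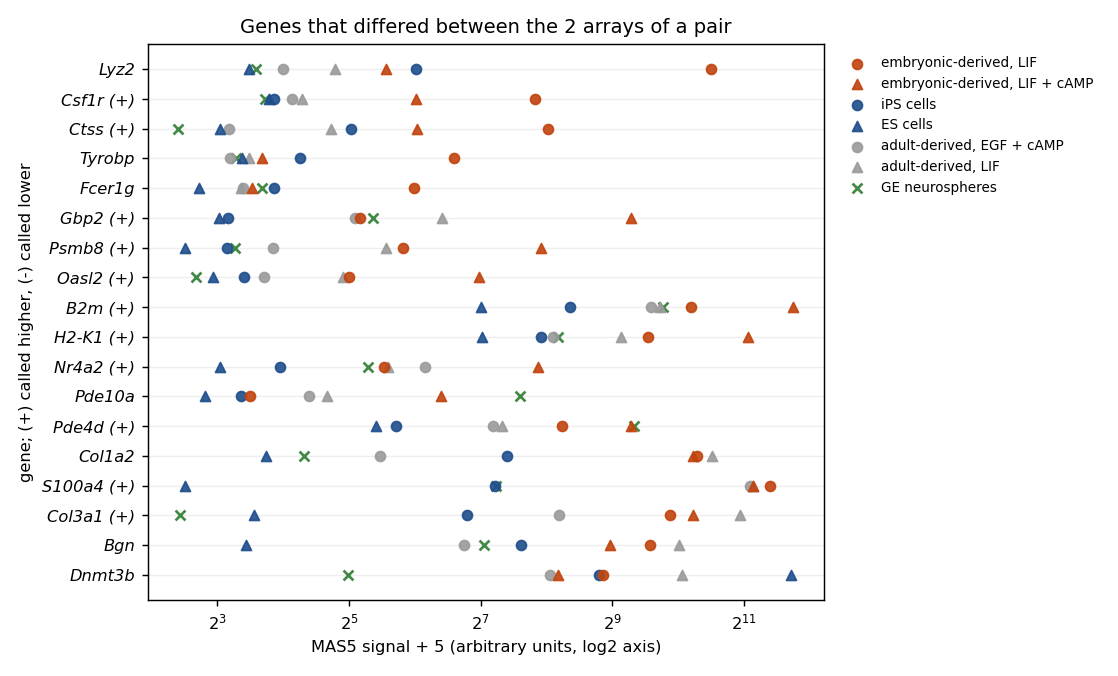
MAS5 signal plus 5 (log2 axis) on each array for 18 genes picked after their values were seen because the arrays of a pair differ. Macrophage genes (Lyz2 to Fcer1g) are high on the embryonic-derived LIF array (orange circle), interferon and cAMP genes (Gbp2 to Pde4d) on the LIF plus cAMP array (orange triangle), and the matrix genes (Col1a2 to Bgn) on the iPS array (blue circle) over the ES array (blue triangle).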

How the data were processed

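RNA of 12 mouse cultures was hybridised to Affymetrix 1-colour arrays, 1 array per sample, from Trizol total RNA labelled as biotinylated cRNA, per the labels' protocols. The deposited values are MAS5 signals, a linear intensity per probe set, for which the submitters' processing notes name Expression Console 1.1 and MAS5. The log2 scale was taken here from the authors' linear signals. In each deposited column of 45101 probe sets the mean after trimming 2% at each end was 100, so arrays were already scaled, and no further normalization was applied for the reported values. MAS5 subtracts background, so dim signals are noisy. Depth does not apply to arrays, and their number limits the precision.

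Probe sets with 1 gene symbol (34945) were kept, and 932 with several, 9160 with none and 64 controls were left out. Each gene was read from its brightest probe set, if that reached 20 on at least 1 array, which left 13650 genes. Signals were taken as log2(signal + 5) and fitted with limma 3.58.1 in R 4.3.3 (lmFit, eBayes with an intensity trend). The fit held 10 arrays in 6 groups with 4 residual degrees of freedom, so each group's error borrows from the other groups. The 2 primary neurosphere arrays were left out of it because they differ widely in pluripotency transcripts. Adjusted p-values are Benjamini-Hochberg values over all 13650 genes, and tests are two-sided. The fit was tested on simulated data.

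The members and the 30 gene lists (737 genes, 630 of them tested) were chosen with earlier results of these data known. Genes were named by rule: the 10 largest called differences in each direction, with groups that did not overlap and the brighter group at 100 or more on both arrays; up to 4 called members of each list with the smallest adjusted p and both brighter arrays at 50 or more; a fixed set of genes; and the 6 highest and 6 lowest by the first rule against the adult-derived arrays. Further list members are given as examples and were picked after their values were seen. Alternatives changed the pseudocount, filter, scaling, probe set rule, trend and arrays. Groups compared share no replicate number, and the iPS or ES line of origin, which links pluripotent and secondary neurosphere arrays, was tried as a replicate block. The deviations of those pairs correlated at 0.06 across genes.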

Additional observations from a re-analysis of the deposited data

Results flagged for a closer look

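The difference of embryonic-derived neurospheres from pluripotent cells was set against that of adult-derived neurospheres, and 20 genes passed limma's test of the difference between the 2 effects (Benjamini-Hochberg adjusted p under 0.05). Values are log2 differences, embryonic-derived minus adult-derived, with 2 arrays on each side. Of genes expressed in placenta, Tpbpa differed by 7.18, Ctsj by 7.12, Prl2a1 by 6.30, Prl7d1 by 5.75, Prl7b1 by 5.54, Prl4a1 by 4.91, Prl6a1 by 4.25, Ceacam15 by 4.23 and Ceacam9 by 3.65. Tpbpa, Ctsj, Prl2a1, Prl7d1, Prl7b1 and Prl4a1 reached the filter on no array but the embryonic-derived ones and so had to differ. The gene 1600025M17Rik differed by 3.37, Dio2 by 4.25, Hoxd13 by 3.39, Hpgd by 2.98, Calm4 by 2.91 and Ptchd4 by 2.64. Of these, Hoxd13 reached the filter of 20 on no pluripotent or adult-derived array. The Y-linked Kdm5d differed by 3.02, read 39.9 and 34.0 in embryonic-derived and 0.1 and 0.2 in adult-derived neurospheres, and the sex of the source animals is not in the labels.

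Wdfy1 differed by 3.08, Clip4 by 2.49 and Mreg by 2.31, and these were not called against pluripotent cells. Mreg read 1113 and 1323 in embryonic-derived, 1541 and 1641 in pluripotent, and 242 and 239 in adult-derived cultures. Of the 6 other probe sets of Clip4, 5 differed from pluripotent cells in the opposite direction, none of them called. Iapp, the islet amyloid peptide, differed by -4.72, at 103 and 261 in adult-derived neurospheres and at most 2.0 on the other 4 arrays. Only Tpbpa, Ctsj, Prl2a1 and Prl7b1, of the 9 followed through the fits with 1 array left out, were called in each.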

How the results depend on the processing

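The count of genes called against pluripotent cells (3618) ran from 2680 with the 4 compared arrays alone to 4339 with equal array medians, was 4086 with the line of origin as a replicate block, and reached 5877 when every probe set was tested. Leaving out 1 array gave 899 to 4421. The 20 genes called against adult-derived neurospheres became 64 with all 12 arrays, 63 with every probe set, 8 with a filter at 100, 8 with the replicate block, 56 with probe set means, 39 with no filter, 65 with no trend, 6 with a pseudocount of 1 and 119 with one of 20, and 4 to 41 without 1 array. Directions turned for 5 genes, of which Dnmt3a was called in the reported fit. Cdh2 (0.32) went to -0.044 after quantile normalization and -0.12 with equal medians, and ran from -0.14 to 0.78 without 1 array. Pou5f1 (-0.33) went to 0.042 after quantile normalization, and Dnmt3a (1.21) to -0.37 with probe set means. Without 1 array Dnmt3l (-0.33) ran from -1.90 to 1.24 and Sox17 (-0.70) from -2.04 to 0.64. The cause was not tested. With the replicate block Prl7d1, Iapp and Hoxd13 missed the threshold against adult-derived neurospheres (adjusted p = 0.0571 by limma, Benjamini-Hochberg), Mki67 passed it against pluripotent cells, 1 Hox gene rather than 0 and 2 adhesion genes rather than 1 were lower, and no other named gene or list count changed its call or moved by over 1.5 times. Of 114 named genes called, 89 kept their call under all settings with the compared arrays in place. The number of arrays and dim signals limit the precision: 1600 genes were under 20 on all 4 arrays.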

Other observations

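Transcripts of the sex chromosomes were read as a check and were chosen after their values were seen. Xist, the RNA that silences an X chromosome, read 1640 and 1578 on the embryonic-derived arrays, 41.5 and 50.7 on the iPS and ES arrays, and 2342 and 2111 on the adult-derived arrays, a called difference of 4.99 from pluripotent cells. The Y-linked Eif2s3y read 146 and 131 on the embryonic-derived arrays, 4.4 on the iPS and 666 on the ES array, and 1.4 and 0.5 on the adult-derived arrays. Uty read 45.7 and 46.9, against 3.4 and 191 and against 0.2 and 0.8. Xist and Y-linked transcripts were thus both measured on each embryonic-derived array, whereas the ES array had Y-linked transcripts with little Xist and the iPS array little of either.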
